A study of Mus musculus with 6 samples.

Results

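The sites described here are the pSmad1/5 peaks of embryonic mouse molar tooth germ that lie at the ends of protein-coding genes. A peak was a member when its summit lay within 1 kb of the start or the end of a protein-coding gene of the RefSeq annotation (GRCm38.p6, which has mm10 coordinates). By this rule 5102 of the 35476 molar pSmad1/5 peaks were members (14.4%), out of 123182 peaks in the 4 deposited lists, and they marked 4540 of 21887 protein-coding genes. Chromatin immunoprecipitation with sequencing (ChIP-seq) had been carried out with an antibody to pSmad1/5 and with an antibody to Smad4, in molar tooth germs and in limbs of wild-type CD1 embryos at E13.5. The groups are thus molar pSmad1/5, molar Smad4, limb pSmad1/5 and limb Smad4, with 1 library each, and there are 2 inputs, whose signal was not used here. Each molar library holds the whole tooth germ, in which epithelium and mesenchyme cannot be told apart. With 1 library per group no difference has a replicate check and no p-value is given; the 95% intervals are exact (Clopper-Pearson) and cover counting error only.

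Bone morphogenetic proteins (BMPs) bind paired type I and type II receptors at the cell surface, and the type I receptor phosphorylates Smad1 and Smad5. The phosphorylated proteins join Smad4, enter the nucleus and bind DNA at GC-rich elements and at the shorter Smad-binding element, usually with other transcription factors. In the tooth germ BMP signals pass between epithelium and mesenchyme, and Msx1, Pax9, Barx1 and Lhx6 are among the transcription factors that define the dental mesenchyme. A peak records where DNA was recovered with the antibody, and it measures neither the expression of the gene beside it nor the regulation of that gene.

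The promoters below are examples of such sites, chosen from a longer set of stretches. They are at genes of the BMP pathway and of the Notch and FGF pathways, which also act in the tooth germ. They are parts of RefSeq promoter windows (GRCm38.p6), which run from 250 bases before to 50 bases after a transcription start. They are printed 5′ to 3′ in the direction of the gene, with up to 40 bases on either side of the peak and at most 30 bases after the start. Capitals mark the bases of the pSmad1/5 peak. Bmpr1a encodes a BMP type I receptor, and its stretch is chr14:34502517-34502604 on the minus strand, with the summit 16 bases before this start. Smurf1 encodes a ubiquitin ligase that targets receptor-regulated Smads (chr5:144965822-144965980, minus strand, summit 81 bases before the start). Fstl1 encodes a secreted follistatin-like protein that antagonises BMPs (chr16:37776900-37777061, plus strand, summit 74 bases before the start). Msx1 encodes a homeobox factor of the dental mesenchyme (chr5:37824556-37824694, minus strand, summit 59 bases before the start). Numb encodes an inhibitor of Notch (chr12:83921958-83922094, minus strand, summit 79 bases before the start). Fgfrl1 encodes an FGF receptor without a kinase domain (chr5:108694109-108694238, plus strand, summit 33 bases before the start).
Bmpr1a: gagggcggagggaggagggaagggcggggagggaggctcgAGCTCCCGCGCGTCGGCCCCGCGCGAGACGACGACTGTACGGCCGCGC
Smurf1: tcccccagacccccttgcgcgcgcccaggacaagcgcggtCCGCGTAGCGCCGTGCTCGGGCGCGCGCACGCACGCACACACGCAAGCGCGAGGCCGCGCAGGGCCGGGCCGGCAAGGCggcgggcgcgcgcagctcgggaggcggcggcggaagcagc
Fstl1: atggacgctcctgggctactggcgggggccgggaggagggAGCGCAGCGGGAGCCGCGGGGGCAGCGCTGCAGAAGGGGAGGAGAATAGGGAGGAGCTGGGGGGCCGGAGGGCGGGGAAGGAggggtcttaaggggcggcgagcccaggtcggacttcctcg
Msx1: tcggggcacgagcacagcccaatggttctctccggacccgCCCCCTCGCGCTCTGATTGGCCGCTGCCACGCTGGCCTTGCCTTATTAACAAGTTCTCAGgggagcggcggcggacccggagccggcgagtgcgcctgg
Numb: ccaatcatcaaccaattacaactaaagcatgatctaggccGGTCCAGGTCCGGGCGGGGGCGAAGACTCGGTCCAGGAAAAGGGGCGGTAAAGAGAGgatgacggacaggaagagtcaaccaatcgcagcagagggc
Fgfrl1: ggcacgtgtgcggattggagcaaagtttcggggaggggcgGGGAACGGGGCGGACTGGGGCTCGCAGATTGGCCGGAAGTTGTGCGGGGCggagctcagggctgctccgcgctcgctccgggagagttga

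The share of G and C in the 6 stretches ran from 56.2% at Numb to 80.5% at Smurf1, while the median of all whole promoter windows was 56.3%. The letters of the Sp/Klf GC box, GGGCGG on either strand, occurred at Bmpr1a, Fstl1, Msx1, Numb and Fgfrl1 and not in the Smurf1 stretch. Within the capitals they occurred 2 times at Numb and 1 time each at Fstl1 and Fgfrl1. The CCAAT box, bound by NF-Y, occurred inside the peak at Msx1 and at Fgfrl1. The exact letters of the GC-rich BMP-Smad element, GGCGCC, were in none of the 6 stretches. Neither were those of the Smad-binding element, CAGACA. Shorter or variant forms of either element were not searched. In the longer set from which the 6 were chosen, GGCGCC occurred at Frs2, outside the peak, and CAGACA at Sfrp2. These matches describe letters and not bound sites.

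Most gene-end sites lay at starts. A member near any known start was counted at a start. A member near a known end was left out if it was also near a gene of unknown strand, which can raise the share at starts. Of the 4059 members placed in this way, 3457 (85.2%, interval 84.0 to 86.2%) were within 1 kb of a start, 142 of them near an end as well. The other 602 (14.8%) were near an end only. The share at starts was 59.2% in the molar Smad4 list, 80.3% for limb pSmad1/5 and 82.2% for limb Smad4. The median summit lay 184 bp downstream of the gene start, with quartiles at 62.5 bp upstream and 440 bp downstream, and 69.0% of the pairs of a start and a summit had the summit downstream. In the bin from 0 to 250 bp after the start there were 56.7 molar pSmad1/5 summits per 1000 genes, against 5.28 per 1000 genes and bin in the flanks beyond 3 kb, a ratio of 10.7. The same ratio was 8.89 for limb pSmad1/5, 10.8 for limb Smad4 and 1.95 for molar Smad4. Around gene ends no such excess was present: within 250 bp of an end there were 4.29 summits per 1000 genes and bin, 0.656 times the flanks.

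**Figure D1:**
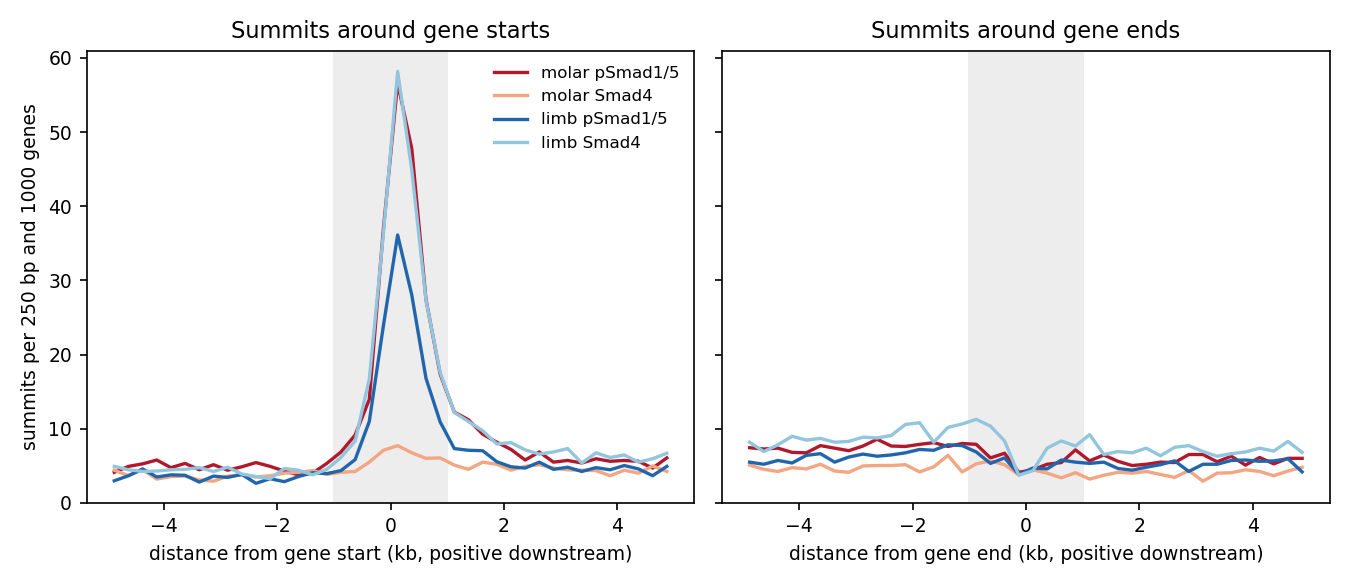
Summits per 1000 protein-coding genes in bins of 250 bp around gene starts and gene ends, plotted against the distance in kb (positive downstream) for the 4 peak lists, with the 1 kb of the rule shaded. Molar pSmad1/5 reached 56.7 per 1000 genes just after the start, while molar Smad4 reached 7.72 there and no list had a comparable maximum at gene ends.

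Counted by gene, 20.7% of protein-coding genes had a molar pSmad1/5 summit within 1 kb of an end. The same rule gave 7.76% for molar Smad4, 15.5% with limb pSmad1/5 and 21.8% with limb Smad4. These shares are the backgrounds against which the gene lists below are read. Among the marked genes 3571 had 1 such peak and 969 had several, up to 5 at Erc1, Psd, Nup153 and Map4k4. Because neighbouring genes can share a peak, genes are not independent of each other: 595 members were near 2 genes, 11 were near 3, and 310 were near the starts of genes on opposite strands. The rule is a threshold on distance, and the members just inside it were peaks 1000 bp from D630023F18Rik, Psd and Mc1r (scores 3.05, 3.21 and 3.11), 999 bp from Vipr2 (2.40) and 998 bp from Mycn (2.25). Just outside were peaks 1001 bp from Bok (4.25) and Rhbg (2.77) and 1002 bp from Cdk5r2 (2.19), Gpr25 (3.47) and Gatb (2.20). These scores are the enrichment scores that the authors' peak caller gave each peak.

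The background differed between chromosomes with the lowest score listed there. On 7 autosomes the molar pSmad1/5 list reaches down to a score of 2, and 30.8% of the genes were marked. On the other 12 it reaches down to 3, and 17.2% were marked. The X and Y chromosomes are in neither class. Counts on each class of chromosomes are given beside several lists below; the part of the lowest listed score in the other counts was not tested.

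Promoter composition moved with the mark. Of genes with a CpG-rich promoter window (GC of at least 50% and observed over expected CpG of at least 0.6), 32.4% were marked, against 10.8% of genes with a CpG-poor window. The pair of shares was 9.26% and 6.32% for molar Smad4, 22.0% and 9.44% in limb pSmad1/5 and 32.1% and 12.6% in limb Smad4. Molar pSmad1/5 marked the start of 2.08% of genes with a promoter GC under 40%, 5.71% between 40 and 50%, 14.6% between 50 and 60%, 26.7% between 60 and 70% and 38.6% from 70% upwards. The share of genes marked at the end ran from 0.774% to 5.88% over the same bands. Marked genes were also longer, with a median of 24.1 kb against 15.8 kb for unmarked genes, and 2.82% of them were predicted genes, against 9.34% of unmarked genes. Whether base composition or open chromatin affects how DNA is recovered at these promoters was not tested, since the signal of the inputs was not used here.

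**Figure D2:**
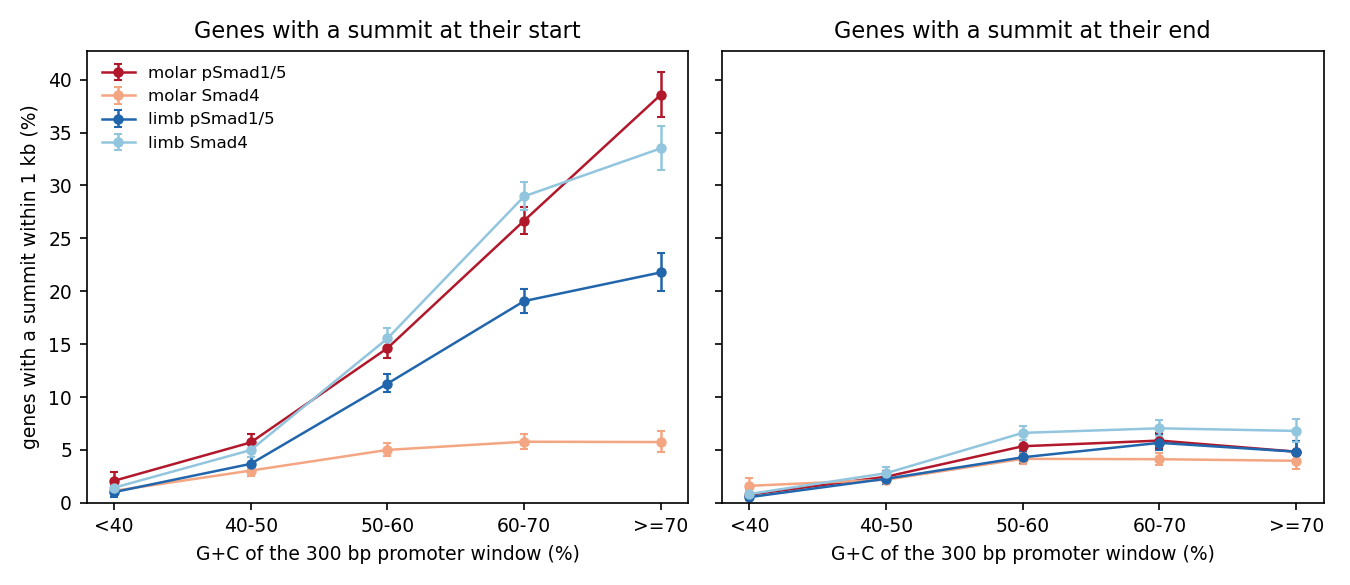
Share of protein-coding genes with a marked start or end, in percent, against the GC content of the promoter window in 5 bands, for the 4 peak lists with 95% counting intervals. For molar pSmad1/5 the share marked at the start was 2.08% in the lowest band and 38.6% in the highest.

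Among 21263 promoter windows, 1075 held a gene-end pSmad1/5 summit, and their median GC was 67%, against 56.3% for all windows. Altogether 5 motifs were searched on both strands in whole windows, and matches of GGGCGG and GGCGCC can share bases. GGCGCC was in 33.1% of the windows with a summit, against 15.3% of all windows. Between 60 and 70% GC this became 27.5% against 24.9%, and from 70% GC upwards 48.2% against 43.8%, with intervals of 23.5 to 31.6% and 43.2 to 53.3% that include the value of all windows. CAGACA was in 13.8% of windows with a summit, against 18.9% of all windows, and between 60 and 70% GC in 14.1% against 14.2%. GGGCGG was in 76.7% against 46.2%, and between 60 and 70% GC in 75.6% against 77.0%. CCAAT was in 31.1% against 38.2%, and between 60 and 70% GC in 37.7% against 37.1%. The Ets site CCGGAAG was in 16.5% against 11.6%, and between 60 and 70% GC in 19.9% against 19.6%. Between 50 and 60% GC the shares differed for GGCGCC, with 18.1% (interval 12.8 to 24.5%) against 8.95%, and for GGGCGG, with 54.4% (interval 46.9 to 61.8%) against 38.5%. GC was not matched within the bands, and CpG content was not matched.

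Genes of the BMP pathway were marked more often than the 20.7% of all genes at several steps. The lists of these steps are not independent of each other, since Bambi, Smad4, Smurf1, Zfp423 and Skil each stand in more than 1 of them. Of 18 genes for BMP and TGF-beta receptors and coreceptors, 10 were marked (55.6%, interval 30.8 to 78.5%), against 3 in molar Smad4, 4 in limb pSmad1/5 and 1 in limb Smad4. They were 3 of 4 genes on the chromosomes listed down to 2, and 7 of 14 on those listed down to 3. The BMP type I receptor gene Bmpr1a had 3 gene-end peaks, and the best, at a score of 4.66, lay 774 bp downstream of the outermost gene start, at the promoter printed above. Acvr1, another type I receptor of the pathway, had 2 peaks with a best score of 4.07, and Bmpr2, the type II receptor, had 1 peak at 3.06, 271 bp upstream of its start. Bambi, a pseudoreceptor that inhibits BMP signalling and is itself a BMP target, had 1 peak at 4.15. Rgmb, a BMP coreceptor, had a best score of 3.74 and Acvrl1, a type I receptor of endothelium, 3.66. Tgfbr2, the TGF-beta type II receptor, had its summit 3 bp from its start, at a score of 3.58. Of the Smad genes, 4 of 8 were marked (interval of the share 15.7 to 84.3%, which includes the background), as in limb pSmad1/5 and in limb Smad4. They were Smad2 (3.35, in a peak that overlapped a limb pSmad1/5 peak), Smad4 (3.23), Smad3 (3.19) and Smad5 (2.56, 21 bp from the gene's end). The inhibitory Smads were unmarked, with the nearest summit 1352 bp from an end of Smad7 and 24930 bp from Smad6.

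Smad regulators and cofactors were marked in 13 of 24 cases (54.2%, interval 32.8 to 74.4%), against 1 in molar Smad4, 6 in limb pSmad1/5 and 8 in limb Smad4. The corepressor gene Skil had 3 peaks with a best score of 4.99. The acetyltransferase genes Ep300 and Crebbp, coactivators of Smads, had best scores of 4.73 and 4.41. The peaks at Stub1 (4.04), which encodes a ubiquitin ligase, and at Ctdsp2 (3.93), which encodes a phosphatase, overlapped limb Smad4 peaks, and Smurf1 had 1 peak at 3.65. BMP antagonist genes were marked in 8 of 18 cases (44.4%, interval 21.5 to 69.2%), against 1 in molar Smad4, 3 in limb pSmad1/5 and 7 in limb Smad4. The 8 were Nbl1 (4.16), Dand5 (4.06), Chrdl2 (3.54), Kcp (3.53), Grem1 (3.44), Fst (3.13), Chrd (2.49) and Fstl1 (2.30), and Fst, follistatin, had 3 peaks. The Dand5 peak overlapped a limb pSmad1/5 peak. Grem1 had 2 peaks, 81 and 531 bp downstream of the start, and the one at 81 bp overlapped a limb Smad4 peak. Noggin (Nog) was unmarked, with the nearest summit 7705 bp away.

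BMP ligand genes were marked in 6 of 22 cases (27.3%, interval 10.7 to 50.2%, which includes the background), against 0 in molar Smad4, 6 in limb pSmad1/5 and 9 in limb Smad4. The marked ligand genes were Gdf7 (3.85), Gdf11 (3.71), Bmp3 (3.42), Gdf5 (3.15), Bmp6 (2.77) and Gdf2 (2.36). Bmp4, the ligand most studied in dental mesenchyme, had its nearest summit 2489 bp away, and Bmp2 had none within 50 kb. Of 30 known direct targets of BMP-Smad signalling 12 were marked (interval of the share 22.7 to 59.4%), against 4 in molar Smad4, 9 in limb pSmad1/5 and 12 in limb Smad4. The Notch-pathway repressor Hey1 scored 5.12, the AP-1 member Junb 4.09, the T-box gene Tbx3 3.76 and the zinc-finger cofactor Zfp423 3.60. Of the Id genes, which encode inhibitors of differentiation, Id4 was marked (2.62), while the nearest summit was 2100 bp from Id1, 4799 bp from Id2 and 27674 bp from Id3. Msx1 had 3 peaks, at scores of 3.25, 3.14 and 3.31, which lay 59 bp upstream and 251 and 804 bp downstream of its start. Msx2 had none, with the nearest summit 4447 bp away. Of 16 TGF-beta ligands and targets 9 were marked, against 2 in molar Smad4, 2 in limb pSmad1/5 and 5 in limb Smad4. Inhbb, the activin beta-B subunit, had 3 peaks and the highest score of the pathway lists, 6.13, and the latent TGF-beta binding proteins Ltbp3, Ltbp1 and Ltbp2 and the ligand gene Tgfb1 scored 4.23, 3.85, 3.57 and 3.57. Among genes with a CpG-rich promoter, the marked genes were 6 of 10 receptors, 9 of 15 Smad regulators, 5 of 9 antagonists, 8 of 15 direct targets, 3 of 6 ligands, 2 of 5 Smad genes and 4 of 6 of the TGF-beta list, against 32.4% of all such genes.

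**Figure D3:**
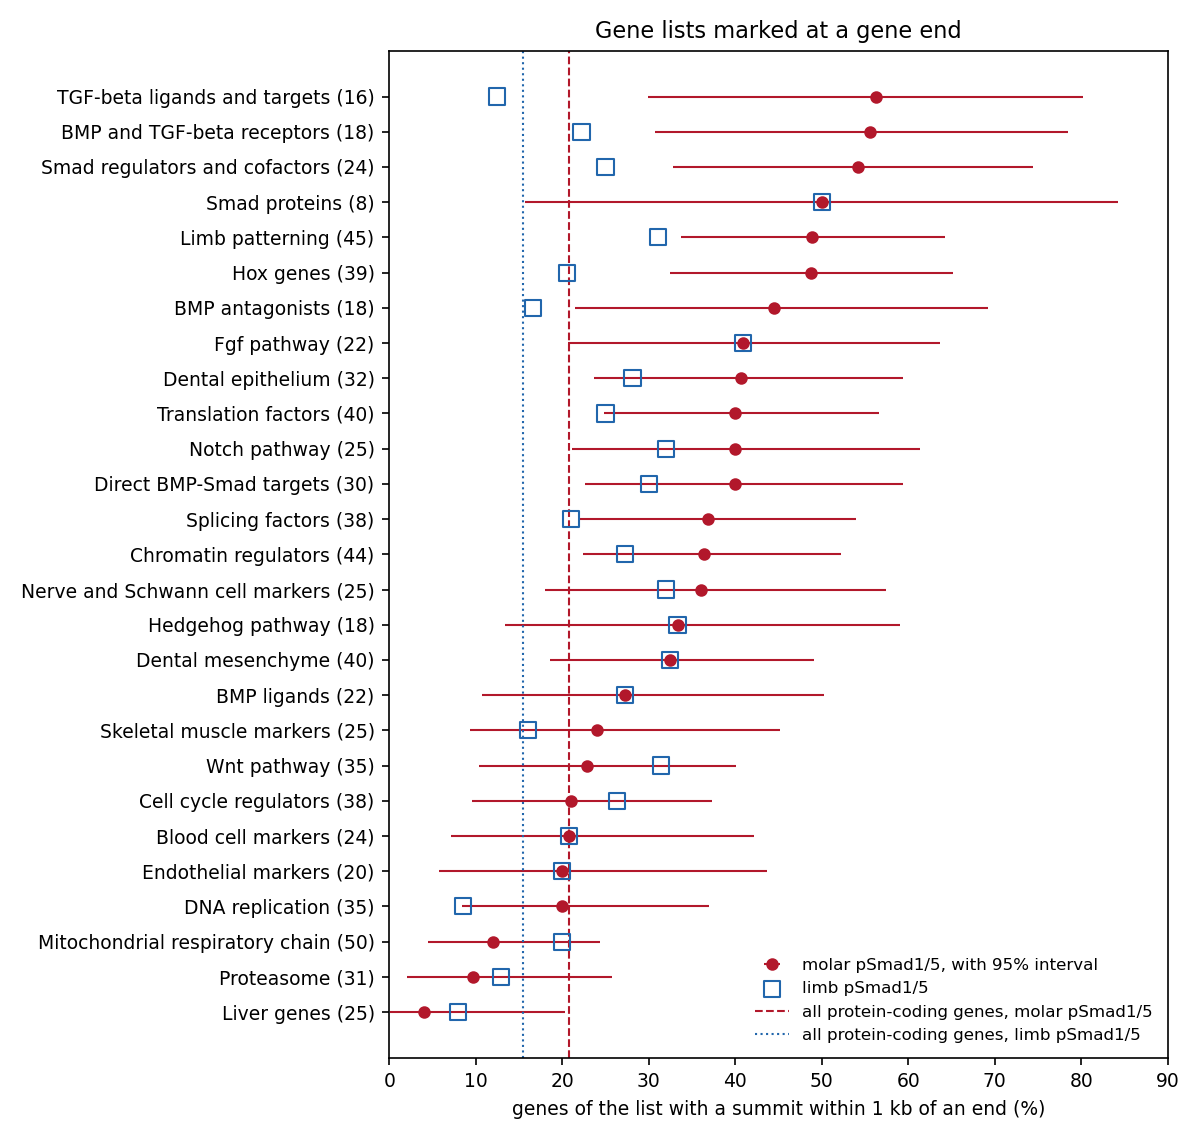
Percent of the genes of each list with a summit within 1 kb of an end, for molar pSmad1/5 with its 95% counting interval (circles) and for limb pSmad1/5 (open squares), with the number of genes after each name and lines at the shares of all protein-coding genes. Receptors, with 10 of 18 genes, lie to the right, and liver genes, with 1 of 25, to the left.

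The tooth lists were marked above the background in the molar list, as 13 of 40 genes of dental mesenchyme (32.5%, interval 18.6 to 49.1%) and 13 of 32 of dental epithelium (40.6%, interval 23.7 to 59.4%). The mesenchyme list had 4 marked genes in molar Smad4, 13 in limb pSmad1/5 and 17 in limb Smad4. The epithelium list had 1, 9 and 8 in the same order. The interval for dental mesenchyme includes 20.7%. Among genes with a CpG-rich promoter, 7 of 15 mesenchyme and 2 of 8 epithelium genes were marked, against 32.4% of all such genes, so the epithelium list was not above the background there. Of the mesenchyme genes, 9 of 23 were marked on chromosomes listed down to 2 and 4 of 17 on those listed down to 3. Lhx6, a LIM homeobox gene of the tooth-forming mesenchyme, had 1 peak at 4.71 located 195 bp from its end, and the forkhead gene Foxd1 had 1 peak at 4.54. Barx1 had 2 peaks, one 286 bp upstream of the start (3.27) and one 765 bp past the end (2.72). Osr2 (3.01) and Ptch1 (2.87) were marked, and the Ptch1 peak overlapped a limb Smad4 peak. Pax9, Lhx8, Runx2 and Sox9 were unmarked, with the nearest summits 1651, 5260, 17690 and 26890 bp away. Among the epithelial genes Wnt7b (4.14), Pitx1 (4.13), Ovol1 (3.80), Fgf8 (3.71) and Fgf4 (3.63) were marked, and so was Krt14 (3.18). A Fgf8 peak overlapped a limb pSmad1/5 peak. Shh was unmarked at 1368 bp, and Lef1 at 1271 bp.

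Limb patterning genes were marked in the molar list in 22 of 45 cases (48.9%, interval 33.7 to 64.2%), against 1 in molar Smad4, 14 in limb pSmad1/5 and 18 in limb Smad4. The Hox genes, which the limb list shares in part, were marked in 19 of 39 cases (48.7%, interval 32.4 to 65.2%), against 2, 8 and 14 in the same order, by 24 distinct peaks. Hoxa11 scored 5.00, Hoxc10 4.74, Hoxd8 4.47, Hoxd12 4.38 and Hoxa13 4.27, and Hoxa5 and Hoxa6 shared 1 peak at 4.19 that overlapped a limb Smad4 peak. Hoxa4 had 4 peaks, with a best score of 3.92. The LIM homeobox gene Lhx2 scored 4.77. On chromosomes listed down to 2, Hox genes were marked in 8 of 11 cases, and on those listed down to 3 in 11 of 28. By family, forkhead genes were marked in 21 of 44 cases (47.7%, interval 32.5 to 63.3%). T-box genes were marked in 7 of 16 cases (interval 19.8 to 70.1%). Sox genes and Wnt genes were each marked in 7 of 19 (interval 16.3 to 61.6%). The T-box, Sox and Wnt intervals include the 20.7% of all genes. Among genes with a CpG-rich promoter, 10 of 17 forkhead, 4 of 5 T-box, 3 of 10 Sox and 5 of 12 Wnt genes were marked, against 32.4% of all such genes.

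The lists of 4 other signalling pathways had marked shares whose intervals overlap each other. Notch genes were marked in 10 of 25 cases (interval of the share 21.1 to 61.3%), with Numb at 4.47, Notch1 at 3.67, Notch2 at 3.55 and Hes1, the effector of Notch, at 3.56, in a peak that overlapped a limb Smad4 peak. Fgf pathway genes were marked in 9 of 22 cases (40.9%, interval 20.7 to 63.6%), with the adaptor Grb2 at 5.82 and the docking protein Frs2 at 4.17. Hedgehog genes were marked in 6 of 18 cases (33.3%, interval 13.3 to 59.0%), among them the coreceptor Cdon (4.47), Dhh (3.50) and Ihh (2.70), while the summit nearest to Gli1 was 45051 bp away. Wnt pathway genes were marked in 8 of 35 cases (22.9%, interval 10.4 to 40.1%), and the share was 50% on chromosomes listed down to 2 and 8.33% on those listed down to 3. Axin2, a target of Wnt, was unmarked, 3459 bp from the nearest summit. The Fgf, Hedgehog and Wnt intervals include the 20.7% of all genes. The Notch list had 4, 8 and 10 marked genes in molar Smad4, limb pSmad1/5 and limb Smad4. In the same order the Fgf list had 5, 9 and 8, the Hedgehog list 1, 6 and 11 and the Wnt list 6, 11 and 11. Among genes with a CpG-rich promoter, 6 of 14 Notch, 6 of 14 Fgf pathway, 2 of 7 Hedgehog and 4 of 16 Wnt pathway genes were marked, against 32.4% of all such genes.

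Of translation factors 16 of 40 were marked, of splicing factors 14 of 38 and of chromatin regulators 16 of 44. High scores were found at Eif1ax (5.44) and Sf3a2 (5.24), and at Cbx8, a Polycomb gene (5.96). Proteasome genes were marked in 3 of 31 cases and respiratory chain genes in 6 of 50, including Ndufs5 (5.06). The proteasome interval, 2.04 to 25.8%, includes the background, and that of the respiratory chain, 4.53 to 24.3%, does as well. With a CpG-rich promoter, 12 of 26 translation, 12 of 33 splicing, 12 of 32 chromatin, 2 of 20 proteasome and 2 of 33 respiratory chain genes were marked, against 32.4% of all genes with such a promoter. DNA replication genes were marked in 7 of 35 cases, cell cycle regulators in 8 of 38, cytosolic ribosomal proteins in 15 of 84 and mitochondrial ribosomal proteins in 13 of 78. In limb pSmad1/5 the respiratory chain had 10 marked genes and the proteasome 4.

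Low shares were found in several large gene families. Of 1110 olfactory receptor genes 7 were marked, of 355 vomeronasal receptor genes 2, of 73 defensin genes 0, of 37 interleukin genes 0, of 56 keratin-associated protein genes 1 and of 99 cytochrome P450 genes 4. Few of these genes had a CpG-rich promoter: 7 cytochrome P450 genes, 1 vomeronasal receptor gene, 1 interleukin gene and none of the rest. The median promoter GC was 35% for olfactory and 36.7% for vomeronasal receptor genes. Of all genes with a CpG-poor promoter 10.8% were marked. Where promoter GC was under 40%, 2.08% of genes had a marked start. Other families with members expressed in few tissues had higher shares, as serpins with 9 of 63, Gpr receptors with 19 of 75 and potassium channels with 30 of 94. On chromosomes listed down to 2 these were 9 of 57, 13 of 37 and 16 of 36, against 30.8% of all genes there. On those listed down to 3 they were 0 of 5, 4 of 29 and 13 of 56, against 17.2%. The serpin share was thus below the background in both classes, and the Gpr share in the second. Among markers of other cell types that a molar dissection could hold, 9 of 25 nerve and Schwann cell genes were marked, with the neurofilament gene Nefl at 5.38. Their interval, 18.0 to 57.5%, includes the 20.7% of all genes. With a CpG-rich promoter 3 of 10 of them were marked, against 32.4% of all such genes. The counts were 6 of 25 for skeletal muscle, 4 of 20 for endothelium, 5 of 24 for blood cells and 1 of 25 for liver, the gene Hp at 3.18. Peaks at these genes measure no expression, so they do not show whether such cells were present. Of all 68 lists and families, 44 had a marked share above 20.7%.

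The 15 highest-scoring gene-end peaks had 14 nearest genes. The gene 1600014C10Rik had the first and second of them, with scores of 8.30 and 7.98, 417 and 642 bp downstream of its start. Rabac1, which encodes a Rab acceptor, followed at 7.53 (455 bp downstream), then Setd5 at 7.08 (565 bp upstream), Bspry at 6.96 (647 bp past its end), Sema5b, a semaphorin, at 6.83 and Capn2, a calpain, at 6.81, which overlapped a limb Smad4 peak. Disp3, Eif4ebp2, Slc30a9, Ccdc88c, Nt5c2, Atrnl1, Cobll1 and Fzr1 scored between 6.25 and 6.66. The Nt5c2 peak, which is also within 1 kb of Ina, overlapped a limb pSmad1/5 peak. None of the 15 was near a gene of the BMP pathway lists.

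Gene-end peaks had higher scores than other molar pSmad1/5 peaks, with medians of 3.25 and 2.86. On chromosomes listed down to 2 the medians were 2.76 and 2.48, a difference of 0.280, which was positive on 7 of 7 chromosomes. On chromosomes listed down to 3 they were 3.52 and 3.43, a difference of 0.0867, positive on 11 of 12. Of the peaks in the lowest quintile of scores on the chromosomes listed down to 3, 17.5% were at gene ends, and in the highest quintile 24.6%. On chromosomes listed down to 2 the shares were 6.95% and 19.2%. Members had a median width of 65 bp, against 63 bp for all molar pSmad1/5 peaks.

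**Figure D4:**
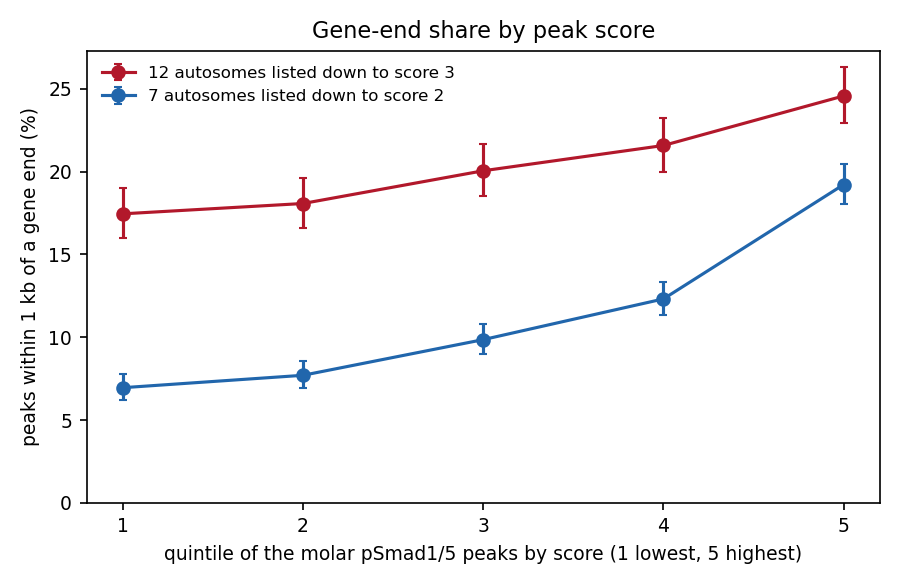
Share of molar pSmad1/5 peaks at gene ends, in percent with 95% counting intervals, by quintile of the score, from lowest to highest, for chromosomes listed down to 2 and to 3. The share was 24.6% in the highest quintile of the chromosomes listed down to 3, and 19.2% in that of the chromosomes listed down to 2.

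Members coincided with the peaks of the limb more often than other molar pSmad1/5 peaks did. Of the members 342 (6.70%, interval 6.03 to 7.42%) overlapped a limb Smad4 peak by at least 1 bp, against 339 of 30374 other molar pSmad1/5 peaks (1.12%, interval 1.00 to 1.24%). With limb pSmad1/5 peaks 181 members overlapped (3.55%, interval 3.06 to 4.09%), against 214 others (0.705%, interval 0.614 to 0.805%). With molar Smad4 peaks 35 members overlapped (0.686%, interval 0.478 to 0.953%), against 174 others (0.573%, interval 0.491 to 0.664%), and these intervals overlap. Members at starts overlapped limb Smad4 in 7.64% of cases and members near an end only in 1.66%. In CpG-rich and CpG-poor promoters the share for limb Smad4 was 8.14% and 5.95%, and for limb pSmad1/5 4.20% and 4.43%. Most members, 4581 (89.8%), overlapped none of the 3 other lists, against 29678 of the other molar pSmad1/5 peaks (97.7%). Of the members 484 (9.49%) overlapped 1 list, against 2.19% of the others, and 37 (0.725%) overlapped 2, against 0.102%. In both groups 0 peaks overlapped all 3. At the 37 the highest scores were at Eif2b5 (5.09), a translation initiation factor subunit, Rab33b (4.56), Mast4 (4.55) and Ralgapa2 (4.19).

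**Figure D5:**
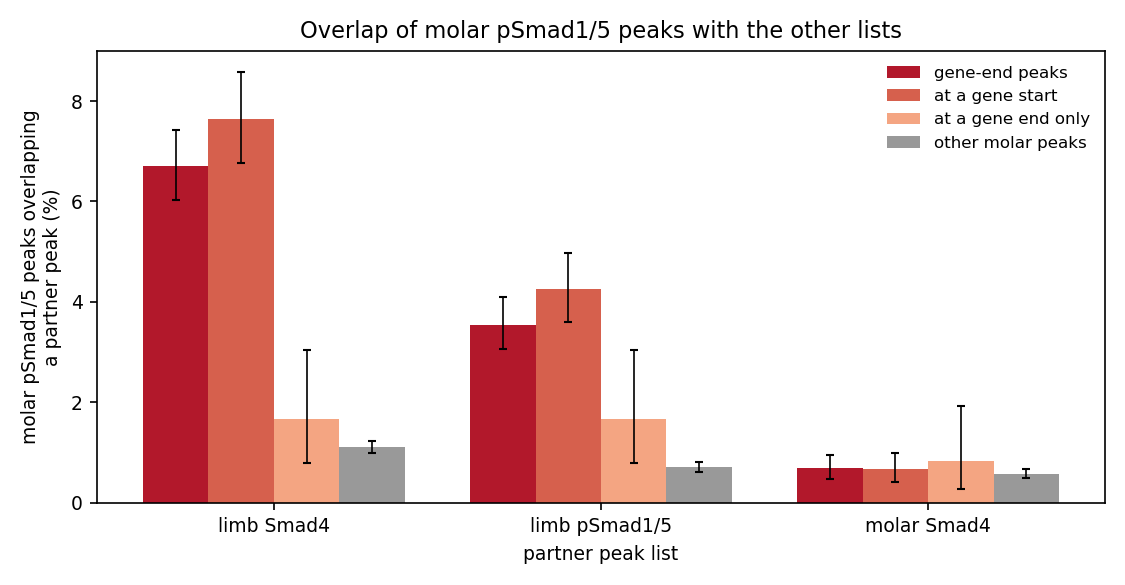
Percent of molar pSmad1/5 peaks that overlap a peak of each other list, as bars with 95% counting intervals for all gene-end peaks, those at a gene start, those at a gene end only and the other molar peaks. Gene-end peaks reach 6.70% for limb Smad4, while for molar Smad4 they reach 0.686%, beside 0.573% of the other peaks.

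By gene, 1665 of the 4540 marked genes (36.7%) were also marked by limb Smad4, against 17.9% of unmarked genes, and they were 34.9% of the genes that limb Smad4 marks. The values for limb pSmad1/5 were 1106 (24.4%), against 13.1%, and 32.7% of its genes, and for molar Smad4 509 (11.2%), against 6.86%, and 29.96% of its genes. Marked genes were marked by 0 of the other lists in 2075 cases, by 1 in 1715, by 2 in 685 and by 3 in 65.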

How the data were processed

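Peak lists of 4 ChIP-seq libraries (molar pSmad1/5, molar Smad4, limb pSmad1/5, limb Smad4; 1 each) were used. Per the labels, BCP was run in transcription factor mode, and the authors deposited for each peak its position, length, enrichment score, p-value and summit. bcl2fastq, Bowtie2, SAMtools, bedtools, deepTools and the mm10 build are named, with no version or role, in the submitters' processing notes. Use of the inputs as controls, duplicate handling and region filters are not given in the sources used here. The deposited score served to rank and filter peaks, and the deposited p-value, under 0.001 for every gene-end peak of the 4 lists, was not used. The lists hold no read counts, so depth is unknown, and a longer list cannot be read as more binding.

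Gene positions came from RefSeq GRCm38.p6; strand came from its promoter windows for 17492 of 21887 genes, and all list genes were matched. Members, gene lists and families were chosen with earlier results of these data known. CpG classes, GC bands, motifs and distance profiles were chosen after the files were seen. Shares carry Clopper-Pearson 95% intervals; peaks overlapped from 1 bp. Named genes were the 15 top-scoring peaks, every marked member of a list with up to 8 marked and otherwise the top 6, up to 4 in a family, a fixed set of tooth and BMP genes, the genes with most peaks, the peaks overlapping 2 other lists and those at the 1 kb threshold; some of these genes are not reported here. Bmpr2 and Hoxa6 were named after their values were seen. The alternatives were windows of 500 bp and 2 kb, scores of at least 3 or 4, 5 peaks per Mb, peak centres, no predicted genes, autosomes and other overlap rules. Distance and overlap steps were tested on simulated data: 200 of 200 planted gene-end peaks and 508 of 508 overlaps were found, and 0 of 800 distant peaks were counted. The versions were Python 3.11.15, scipy 1.17.1, numpy 2.4.6, matplotlib 3.10.9 and pandas 2.3.3.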

Additional observations from a re-analysis of the deposited data

How the results depend on the processing

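Under the settings run, the score difference and the excess of overlap with both limb lists kept their direction, and the excess with molar Smad4 did not (0.709 times the other peaks with 5 peaks per Mb, 0.992 times with the 50% overlap). In the order of a 500 bp window, a 2 kb window, scores of at least 3, scores of at least 4, the 5 top peaks per Mb and the 12 autosomes listed down to 3 (a setting chosen after the data were seen), the share of molar pSmad1/5 peaks at gene ends was 9.89, 19.4, 19.8, 24.9, 20.1 and 20.3%, against 14.4%. In that order the share of genes marked was 15.2, 26.9, 15.4, 4.37, 11.98 and 17.2%, with 21.9% without predicted genes and 21.4% on autosomes, against 20.7%. The share at starts was 89.5, 79.9, 87.8, 89.4, 88.8 and 86.7%, against 85.2%. The score difference was 0.111, 0.0422, 0.131 and 0.0867 in the last 4 of these settings, against 0.385. Genes marked numbered 956 at scores of at least 4 and 2621 with 5 peaks per Mb, against 4540.

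Overlap with limb pSmad1/5 was 1.93% at scores of at least 4, 2.49% with 5 peaks per Mb, 7.96% for summits within 200 bp and 1.72% for an overlap of at least 50% of the peak, against 3.55%. For limb Smad4 it was 2.84, 4.46, 13.47 and 3.33%, and 5.91% with a 2 kb window, against 6.70%. For molar Smad4 it was 0.341, 0.189, 1.86 and 0.235%, against 0.686%. The ratio of members to other peaks stayed above 3 for both limb lists (3.52 to 5.18 for pSmad1/5, 3.43 to 6.15 for Smad4), while for molar Smad4 it ran from 0.709 to 1.89. The cause was not tested.

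Of 68 lists and families 41 kept their side of the background in every setting run, 28 above and 13 below. Receptors, Smad regulators, antagonists, direct targets, both tooth lists, limb patterning and Hox genes were above it in all 9 settings. Wnt pathway genes kept their side in 4 of 9, cell cycle regulators in 5, muscle and blood markers in 6, BMP ligands in 7 and Smad proteins and the Hedgehog pathway in 8. No paired analysis was possible because each group has 1 library and the labels give no replicate numbers; for the same reason no library could be left out. Weak peaks are limited by the lowest score each chromosome lists.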

Other observations

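Several families that belong to no pathway above had a marked share over the 20.7% of all protein-coding genes, and for some of them the counting interval includes that value. Rab GTPase genes and their effectors, which direct vesicle traffic, were marked in 24 of 69 cases (interval 23.7 to 47.2%), against 13 in limb pSmad1/5. Potassium channel genes were marked in 30 of 94 cases (22.7 to 42.3%), against 26, and solute carrier genes in 99 of 375 cases (22.0 to 31.2%), against 73. The intervals include 20.7% for the ubiquitin-conjugating enzymes Ube2 (13 of 37, interval 20.2 to 52.5%, against 4 in limb pSmad1/5), for kinesins, motors of microtubule transport (13 of 38, 19.6 to 51.4%, against 8), and for RNA polymerase II subunits (6 of 13, 19.2 to 74.9%, against 4). For semaphorins and plexins, which guide axons and cells, the lower bound lies at the background (11 of 29, 20.7 to 57.7%, against 6). Among genes with a CpG-rich promoter, of which 32.4% were marked in all, the counts were 14 of 41 Rab, 11 of 21 potassium channel, 44 of 137 solute carrier, 10 of 23 Ube2, 7 of 26 kinesin, 4 of 9 RNA polymerase II and 6 of 15 semaphorin and plexin genes. There the share of kinesins was below that background and the share of solute carriers close to it. These are counts from 1 library a group, and limb pSmad1/5 marked 15.5% of all genes.

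Besides families named above, the interval lay below 20.7% for histones, linker histones included (8 of 75 genes, interval 4.72 to 19.9%, against 2 in limb pSmad1/5). It also did for keratins (4 of 49, 2.27 to 19.6%, against 12) and protocadherins (5 of 69, 2.39 to 16.1%, against 2). All 49 keratin genes lay on chromosomes listed down to 3, where 17.2% of genes were marked, a value inside their interval. With a CpG-rich promoter, 5 of 19 histone, 1 of 2 keratin and 1 of 5 protocadherin genes were marked, against 32.4% of all such genes. Of all genes with a CpG-poor promoter 10.8% were marked. Zinc finger Zfp genes (70 of 397, 14.0 to 21.7%) and mediator subunit genes (6 of 30, 7.71 to 38.6%) were near the share of all genes.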
